A study of Mus musculus with 4 samples.

Results

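The genes described here are the Rab, Arf and Arl small GTPases of mouse NIH3T3 cells, an established mouse fibroblast line that the labels describe as dermal fibroblasts. They were chosen by name: every non-control probe whose gene name is Rab, Arf or Arl followed directly by a digit and at most 3 further letters or digits. The rule took 179 of 56605 probes and 97 of 37074 gene names on the array. The family was singled out because Arl5a was lower after Timp1 was targeted, so the values of Arl5a are given as a description, without a test. Of the 97 genes, 85 code for GTPases. The name rule also took 8 binding partners that are not GTPases (Arl2bp, Arl14ep, Arl6ip1, Arl6ip4, Arl6ip5, Arl6ip6, Rab3ip and Rab3il1) and 4 antisense transcripts (Arf4os, Arl4aos, Rab10os and Rab26os).

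Total RNA was compared between NIH3T3 cells transfected with a control siRNA (siControl, n = 2 arrays) and with an siRNA against Timp1 (siTIMP1, n = 2 arrays). Both siRNAs were delivered with the carrier that the labels call sCA, and all cells were held in medium containing 2% fetal calf serum. The cell line was used with no genetic change stated, the time after transfection and the siRNA sequences are not given in the sources used here, and no untransfected cells were among the 4 arrays. Separate cultures are not named in the labels for the arrays of a group, and the p-values then reflect only how these arrays vary, which may be technical variation. The 4 arrays shared 1 slide and 1 scan. The siControl arrays held positions 1 and 2 of that slide and the siTIMP1 arrays held 3 and 4, so position and group cannot be told apart. RNA was measured in bulk, in which fewer cells expressing a gene and less RNA per cell cannot be told apart.

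Small GTPases of these families act as switches: they are active and membrane-bound with GTP and inactive with GDP, exchange factors turn them on, and GTPase-activating proteins turn them off. Rab proteins give each membrane of the secretory and endocytic routes its identity and recruit motors and tethers, Arf proteins recruit vesicle coats and lipid enzymes, and the Arf-like Arl proteins act at the Golgi, lysosomes, cilia and in tubulin folding. In fibroblasts these routes carry collagen and other matrix proteins outward and return integrins and matrix-degrading proteases to the cell surface.

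The probes that carry the main values are shown by 30 of their 60 bases, 5' to 3', since what each value measures is the binding of labelled RNA to 1 such probe. Capitals mark the longest run of bases that a probe shares with the Arl5a probe, and in the Arl5a line the run shared with the first Arl5b probe. Coordinates are of the mouse build mm9 and cover the whole probe. Whether a probe lies in coding sequence or in an untranslated region was not determined here.
Arl5a, chr2:52253642-52253701, minus strand, bases 27 to 56 of the probe: gggctaattagGCAATATttcatcttttta
Arl5b, first probe, chr2:15003991-15004050, plus strand, bases 7 to 36: gcaatcatggtGCAATATagcatgatatcc
Arl5b, second probe, chr2:14991574-14994789, plus strand, across an exon junction, bases 31 to 60: cttgttgtggatagcatTGACAGGgaacgc
Arl6ip5, chr6:97183038-97183097, plus strand, bases 1 to 30: ctatcacTTGGGCacctgtttgatgtgcag
Arl13b, first probe, chr16:62793754-62793813, minus strand, bases 1 to 30: gcTCATCTggtttgaagatattcttgcttc
Arl13b, second probe, chr16:62827035-62827094, minus strand, bases 1 to 30: AATATTTgttgtggattccagtgatgagga
Arl2bp, chr8:97198181-97198240, plus strand, bases 20 to 49: gctgactttccaTGTGACcattagacttta
The Arl5a probe shared at most 7 bases in a row with either Arl5b probe and 6 with the Arl6ip5 probe. Over all member probes the longest run shared with it was 10 bases, in probes of Rab8a and Rab11b.

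Levels are log2 of the processed signal minus the 75th percentile of the same array, so a level of 0 is a signal equal to that percentile. A fold change is the siTIMP1 mean minus the siControl mean in these log2 units, and its standard error (SE) comes from the limma fit. Probes entered the test if no array lacked their value and if, in siControl, in siTIMP1 or in both, each of the arrays showed them well above background. A gene was called at an adjusted p under 0.05 over all tested probes of the array. The targeted gene, Timp1, kept 2.68% of its siControl level (log2 fold change -5.22, SE 0.158, limma adjusted p = 0.0105). The share of spots well above background ran from 45.9% to 52.1% per array, and no spot was saturated.

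Markers of the labelled cell type were present, and those of other cell types were present in part. All 13 fibroblast markers were well above background on all 4 arrays, with summed linear levels (in units of the array's 75th percentile) of 2342 and 2182 in siControl and 2340 and 2348 in siTIMP1. The brightest of them make up most of that sum. Single markers differed more: Pdgfra was at 54.3% of its siControl level (limma adjusted p = 0.0618) and Lum at 77.2% (0.103), while Col5a1 was at 140% (0.172) and Postn at 147% (0.319). None of these passed the threshold, and their part in the values below was not tested. Of markers of other cells, 2 of 7 epithelial, 1 of 6 endothelial, 4 of 7 leukocyte and 3 of 5 melanocyte genes were tested. Epcam, Cdh1, Pecam1 and Cdh5 were not among those tested, whereas Ptprc, Itgam, Cd3e and Cd68 of the leukocyte list were well above background on all 4 arrays. So were Krt8, Krt14, Vwf, Tyr and Dct, with siControl means of -2.89, -1.88, -3.70, -3.24 and 0.43. Itgam, at a siControl mean of 3.48, was brighter than the fibroblast markers Lum, Pdgfra and Pdgfrb and dimmer than the others of that list. The summed leukocyte level was 16.7 and 16.8 in siControl and 14.6 and 13.8 in siTIMP1, and its part in the values below was not tested. For the epithelial list the sums were 0.342 and 0.487 in siControl and 0.403 and 0.485 in siTIMP1, for the endothelial list 0.0536 and 0.111 against 0.0979 and 0.0917, and for the melanocyte list 1.99 and 1.12 against 1.49 and 1.48.

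Of the 97 member genes, 76 had a tested probe, 67 of them coding for GTPases, on 20 chromosomes. Another 18 had no probe well above background on any array. Among these were Arl5c, a relative of Arl5a, the epithelial Rabs Rab17 and Rab25, the melanosome gene Rab38, and Rab27a, Rab37, Rab26 and Rab3b of regulated secretion. The others in this state were Rab9b, Rab19, Rab36, Rab39, Rab40b, Arl11, Arl13a, Arl14, Arf4os and Arl4aos. The last 3, Rab33a, Rab39b and Rab3il1, were well above background on some arrays but did not meet the rule for testing.

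Apart from Arl5a, 1 of the 75 tested members fell and none rose. The one that fell was Arl6ip5, which is not a GTPase. Over all 17646 tested genes, 0.703% were called lower and 0.085% higher, so 1 and 0 among 75 members lie near that background. With no member called higher in limma, 14 members had an unadjusted p under 0.05 with higher values (18.7%, against 11.9% of all tested genes), and 7 had one with lower values (9.33%, against 7.99%). The siTIMP1 arrays both lay above both siControl arrays for 26 members (34.7%, against 31.1% of all tested genes) and below both for 15 (20.0%, against 22.9%). Rab44, which entered the fit only through siControl, is among the 7 and the 15 with lower values. Which members were called changed with the array left out, and the call of Arl6ip5 was lost without siTIMP1 replicate 2. The share of all tested genes called in such fits was not determined, so no counts are given. Without siControl replicate 1 the log2 fold changes of Arl5b, Rab7b and Arl2bp were -0.93, -0.83 and 0.44. Without siControl replicate 2 those of Arl5b and Arf2 were -0.72 and 0.74.

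Most members, like most genes on the array, stood close to no change. Their median log2 fold change was 0.08 with or without Arl5a, beside 0.02 for all tested genes, and 63 of the 76 (82.9%) lay within 0.3 of 0, as did 73.8% of all tested genes. Without Arl5a, 51 members were above 0 and 24 below, with quartiles of -0.07 and 0.17. The share of all tested genes above 0 is not given beside these counts or those per role below, so they describe the members only. The median SE of a member was 0.0984. Of the 73 members besides Arl5a that were well above background on all 4 arrays, 3 (Arl6ip5, Arl13b and Arl5b) had values at least 1.5-fold lower (4.11%, against 4.05% of all genes so measured) and none had values at least 1.5-fold higher (against 1.88%).

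**Figure D1:**
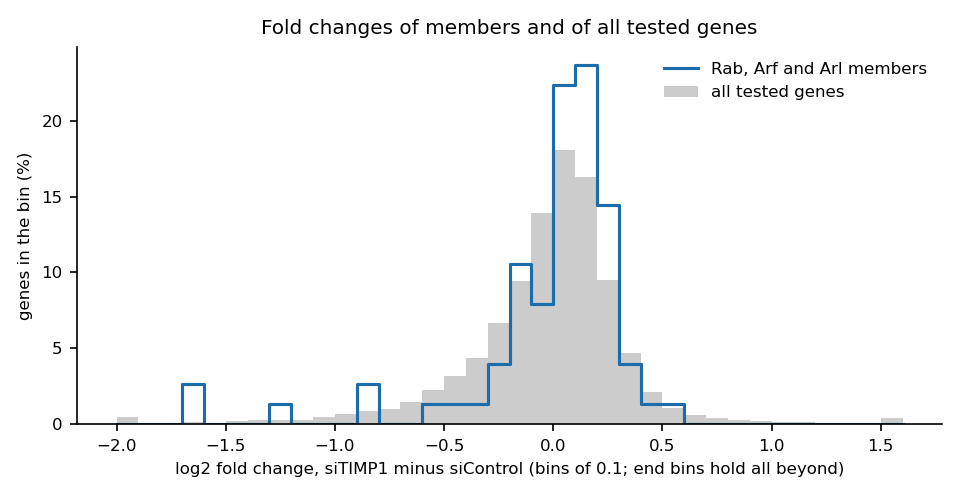
Share of genes (percent, vertical axis) in bins of 0.1 of the log2 fold change (siTIMP1 minus siControl, horizontal axis), for the 76 tested Rab, Arf and Arl members (blue line) and all 17646 tested genes (grey bars), with the end bins holding everything beyond. The members gather just above 0, with 63 of 76 within 0.3 of it, as are 73.8% of all tested genes. The 5 members below -0.8 include Arl5a, which chose the family, and Rab44, which was well above background in siControl alone.

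Arl5a and Arl5b sit on the trans-Golgi, the sorting face of the Golgi, where Arl5 proteins recruit the GARP complex that tethers vesicles returning from endosomes. The Arl5a level was 2.92 and 3.09 in siControl and 1.36 and 1.26 in siTIMP1. Both siTIMP1 arrays lay below both siControl arrays, a separation that goes with the choice of the family by this gene and is no test of it. Its log2 fold change was -1.70 (SE 0.0936, n = 2 and 2), which leaves 30.8% of the siControl level. Only 1 probe measured Arl5a. Its fold change stayed between -1.78 and -1.55 over 14 other ways of processing the arrays.

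Arl5b, the closest relative of Arl5a, had lower values too, but did not pass the threshold. Its first probe gave 1.61 and 1.81 in siControl and 0.87 and 0.91 in siTIMP1, again without overlap between the groups. The log2 fold change was -0.82 (SE 0.102, limma adjusted p = 0.0563, 95% interval -1.08 to -0.56). Adjusted p-values over 14 alternatives ran from 0.0113 to 0.217, and 6 of them were under the threshold. The second Arl5b probe, which spans an exon junction, gave -2.07 and -1.96 in siControl and -2.52 and -2.06 in siTIMP1. On that dimmer probe the log2 fold change was -0.28 (limma adjusted p = 0.505), so the probes of Arl5b differ in size but not in sign.

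Arl1, the trans-Golgi Arl that anchors golgin tethers, had levels of 4.88 and 4.97 in siControl and 4.97 and 5.06 in siTIMP1. The groups overlapped, and the log2 fold change was 0.09 (limma adjusted p = 0.507, 95% interval -0.08 to 0.25). Its other probe gave 0.25 (adjusted p = 0.196). The GARP subunits, to which Arl5 proteins bind, had log2 fold changes of 0.03 (Vps51), 0.20 (Vps52), -0.03 (Vps53) and 0.32 (Vps54), with adjusted p-values from 0.215 to 0.925. These subunits were picked for their link with Arl5a after its values were known.

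Arl6ip5 fell. It encodes a membrane protein of the endoplasmic reticulum, first found through its binding to Arl6 and known for holding back a glutamate transporter. Levels were 3.94 and 4.02 in siControl and 2.57 and 2.82 in siTIMP1, so the groups lay more than 1 log2 unit apart. The log2 fold change was -1.28 (SE 0.103, limma adjusted p = 0.0262), and siTIMP1 kept 41.1% of the siControl level. It was measured by 1 probe. Of 14 alternatives 12 kept the call, with fold changes between -1.41 and -1.16. Fitted in limma with no variance trend, Arl6ip5 had an adjusted p of 0.137, and without siTIMP1 replicate 2 one of 0.0939.

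The remaining binding partners did not pass the threshold. Arl2bp, which binds GTP-loaded Arl2 and Arl3, had levels of 4.81 and 4.74 in siControl and 5.20 and 5.17 in siTIMP1. The arrays of each group lay close together and the groups were apart, with a log2 fold change of 0.41 (SE 0.0558, limma adjusted p = 0.0652). Over 14 alternatives the adjusted p of Arl2bp ran from 0.0239 to 0.252, and 2 were under the threshold. Arl6ip6 gave 6.43 and 6.38 against 6.65 and 6.68 (0.26, adjusted p = 0.103), while its dimmer probe gave 0.01. For Rab3ip, an exchange factor that activates Rab8, the log2 fold change was 0.25 (adjusted p = 0.214). Arl6ip1, which shapes the tubules of the endoplasmic reticulum, had -0.11, and Arl6ip4 had 0.04. The probes of Arl14ep differed in sign, with -0.17 on the brightest probe and 0.52 and 0.38 on the other two.

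**Figure D2:**
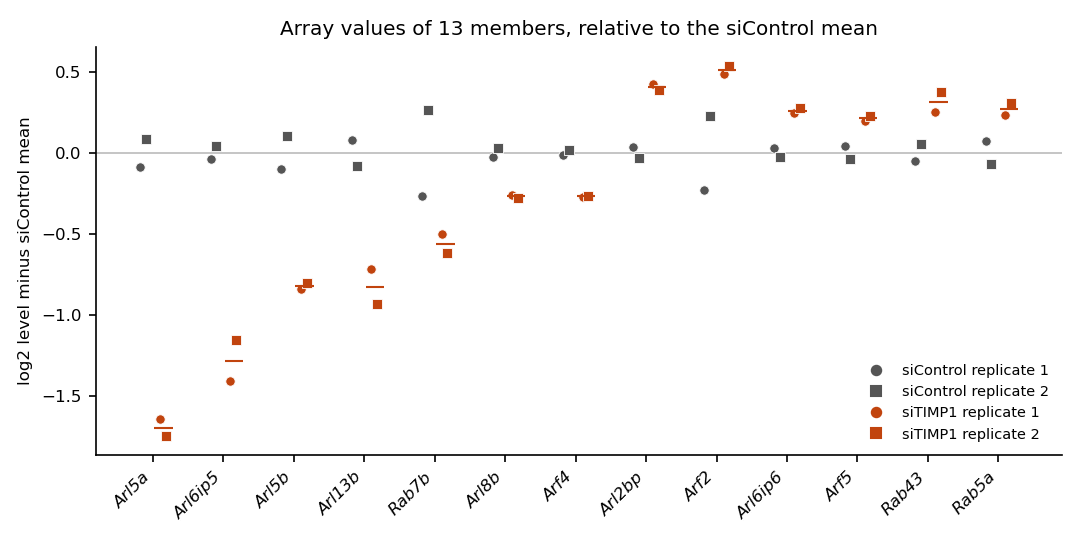
Level on each array (log2) minus the siControl mean of the same gene, for 13 members, with siControl in grey, siTIMP1 in orange, circles for replicate 1 and squares for replicate 2, and a short line at the siTIMP1 mean. Arl5a (-1.70), Arl6ip5 (-1.28), Arl5b (-0.82) and Arl13b (-0.83) lie lowest, and the siControl arrays of Rab7b and Arf2 are as far apart as about 0.5.

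Among the Arls of cilia and tubulin folding, Arl13b stood apart from the rest of its list. Arl13b coats the ciliary membrane and is needed for Hedgehog signalling. Its first probe gave -0.80 and -0.96 in siControl and -1.59 and -1.81 in siTIMP1, a log2 fold change of -0.83 (SE 0.144, limma adjusted p = 0.0987). The second probe, some distance away in the same gene, gave -1.50 and -1.73 against -2.43 and -2.76, a log2 fold change of -0.98 (adjusted p = 0.115). On both probes the siTIMP1 arrays lay below the siControl arrays, but neither probe passed the threshold, and none of 14 alternatives called the gene. With normexp background correction the value of the gene was -0.44. Arl3, which releases lipid-anchored cargo inside the cilium, had 0.01 (95% interval -0.13 to 0.16). Arl2, which acts with tubulin-folding cofactors, had 0.11 (-0.06 to 0.28), and Arl6, which recruits the BBSome coat, had 0.09 (-0.30 to 0.48). The dimmer Arl2 probe gave 0.28 without overlap (limma adjusted p = 0.229).

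All 6 Arfs were tested, and none passed the threshold. Arf4 gave 3.91 and 3.95 in siControl and 3.66 and 3.66 in siTIMP1. Its groups did not overlap, and its log2 fold change of -0.27 (SE 0.0584) had an adjusted p of 0.135 in limma. Arf5, which with Arf4 forms the second class of Arfs, had values in the other direction, 6.43 and 6.35 against 6.58 and 6.62. Its log2 fold change was 0.21 (SE 0.0509, limma adjusted p = 0.154), and its other probes gave 0.28 and 0.11.

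Arf1, which recruits COPI and clathrin adaptors at the Golgi, gave 6.34 and 6.21 in siControl and 6.56 and 6.46 in siTIMP1 (0.23, limma adjusted p = 0.186). Arf2, a close relative of Arf1, gave 3.64 and 4.10 against 4.36 and 4.41, and its siControl arrays were the ones that differed. With a log2 fold change of 0.51 (SE 0.155, limma adjusted p = 0.199), it had the highest value of all members. Without siControl replicate 2 the Arf2 value was 0.74. That array was the siControl array nearer to siTIMP1, so leaving it out widens the gap by itself. Arf3 had -0.01 (95% interval -0.28 to 0.26), and its dimmer probe gave -0.22 without overlap (limma adjusted p = 0.349). Arf6, which works at the plasma membrane in endocytosis and actin remodelling, had 0.10 (-0.06 to 0.26).

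The paired Arl8 proteins, which couple lysosomes to kinesin, had values of opposite sign. Arl8b gave 3.14 and 3.20 in siControl and 2.91 and 2.89 in siTIMP1, a log2 fold change of -0.27 (limma adjusted p = 0.157). Arl8a gave 3.55 and 3.64 against 3.94 and 3.70, a log2 fold change of 0.22 (adjusted p = 0.318). The groups did not overlap for either gene, and neither passed the threshold. The Arl4 proteins, which bring cytohesins to the plasma membrane, had overlapping groups on their brightest probes, with 0.12 for Arl4a, 0.03 for Arl4d and -0.13 for Arl4c. A second Arl4c probe gave -1.01 and -0.93 in siControl and -1.36 and -1.23 in siTIMP1, without overlap (-0.33, limma adjusted p = 0.255). Of the other Arls, Arl9 had the lowest value, -0.44 (adjusted p = 0.316), at a dim level of -2.61 and -2.36 against -2.83 and -3.02. Arl10, Arl15 and Arl16 had -0.10, -0.04 and 0.06.

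**Figure D3:**
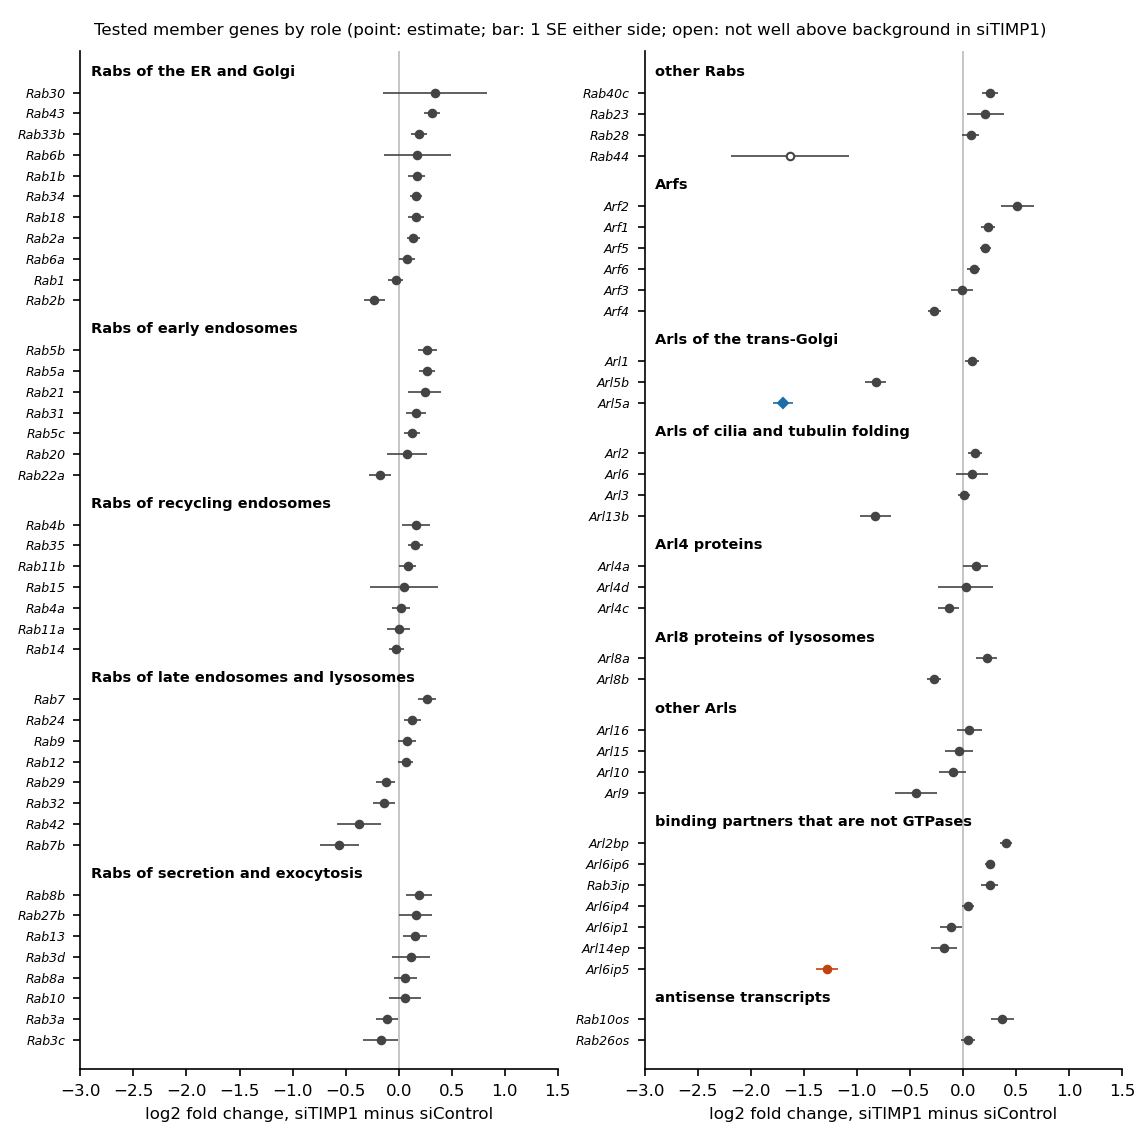
Log2 fold change (siTIMP1 minus siControl, horizontal axis) of each of the 76 tested members, grouped by role, with a bar of 1 SE to either side. Arl6ip5 (orange) is the member that passed the threshold, Arl5a (blue diamond) chose the family and is shown without a test, and Rab44 (open) was not well above background in siTIMP1.

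Of 14 Rabs of the endoplasmic reticulum and Golgi, 11 were tested and none passed the threshold, with a median log2 fold change of 0.16 and 9 values above 0. Rab43 gave 3.74 and 3.84 in siControl and 4.05 and 4.17 in siTIMP1, and its groups did not overlap (0.31, SE 0.0748, limma adjusted p = 0.153). Its other probe had a log2 fold change of the same sign. Rab33b, which brings an autophagy factor to membranes, had 0.20 (adjusted p = 0.270), and Rab34, which acts in lysosome positioning and cilium formation, had 0.16 (0.236). Rab1b, which drives transport from the endoplasmic reticulum to the Golgi, had 0.17 on its brightest probe and -0.12 on the other. Its relative Rab1 had -0.03 on the brightest probe (95% interval -0.20 to 0.14). The dimmer Rab1 probes gave -0.10 and -0.35, both without overlap (limma adjusted p = 0.496 and 0.371). Rab18 of lipid droplets had 0.16 and the Golgi Rab Rab6a 0.08. Rab2a had 0.14 on its brightest probe and -0.18 on its lowest. Rab30 and Rab6b were dim, with SEs of 0.493 and 0.314.

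Rab2b was the Golgi Rab with the lowest value. Its main probe gave 1.74 and 1.63 in siControl and 1.54 and 1.38 in siTIMP1, without overlap (-0.23, limma adjusted p = 0.301). A second Rab2b probe, across an exon junction, gave -0.60 and -3.43 against -4.21 and -4.39, and its siControl arrays disagreed by more than the groups of most members. That probe was not well above background on all 4 arrays, so no test of it is given. Its log2 fold change was -2.29 with an SE of 0.913, and the third probe had -0.06.

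The 7 Rabs of early endosomes were all tested, with 6 values above 0, a median of 0.16 and no call. Rab5a, which directs fusion of early endosomes, gave 3.51 and 3.37 in siControl and 3.67 and 3.74 in siTIMP1 (0.27, SE 0.0769, limma adjusted p = 0.188). Rab5b gave 2.43 and 2.61 against 2.77 and 2.81 (0.27, adjusted p = 0.221), and Rab5c had 0.12. The groups did not overlap for any of these Rab5 genes. Rab21, which binds integrins during their uptake, had 0.24 with overlapping groups, Rab31 had 0.16, and Rab20 had 0.08. The probes of Rab22a differed in sign, with -0.18 on the brightest and 0.22 on each of the other two.

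Of the 9 Rabs of recycling endosomes 7 were tested and none passed the threshold. Their log2 fold changes lay between -0.02 and 0.16. Rab11a, which returns cargo through the recycling endosome, gave 3.66 and 3.93 in siControl and 3.85 and 3.75 in siTIMP1, with overlapping groups and a 95% interval of -0.27 to 0.27. For Rab4a of rapid recycling the interval was -0.19 to 0.24, for Rab14 it was -0.20 to 0.16, and for Rab11b it was -0.12 to 0.29. Rab35, which acts in recycling and cytokinesis, had 0.16 with groups that did not overlap (limma adjusted p = 0.323). The other Rab35 probe had the opposite sign, -0.11.

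Late endosome and lysosome Rabs divided evenly by sign, with 4 of the 8 tested above 0 and 4 below. Rab7, the main Rab of late endosomes, gave 2.96 and 3.13 in siControl and 3.26 and 3.35 in siTIMP1 (0.26, SE 0.0856, limma adjusted p = 0.218). Rab7b, which acts between late endosomes and the trans-Golgi, gave 2.62 and 3.15 against 2.39 and 2.27. The log2 fold change of Rab7b was -0.56 (SE 0.184, limma adjusted p = 0.220), and its other probe gave -0.41. Without siControl replicate 1, the lower of its siControl arrays, Rab7b had -0.83. That array was also the nearer to siTIMP1, so leaving it out widens the gap by itself. Rab9, which returns mannose 6-phosphate receptors to the Golgi, had 0.08, and Rab12 and Rab24 had 0.06 and 0.13. Rab32 of lysosome-related organelles had -0.14, Rab29 had -0.12 and the dim Rab42 had -0.38.

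Rabs of secretion and exocytosis had 8 tested genes of 12 and no call, with log2 fold changes between -0.17 and 0.19. Rab10 and Rab8a, which carry cargo from the Golgi to the cell surface, both had 0.06. Rab8b had 0.19 on its brightest probe and -0.47 on the other. Rab13, known from cell junctions, had 0.16 and -0.22 on its probes, and Rab27b, of secretory granules and exosomes, had 0.16. Rab3a, Rab3c and Rab3d, which act in regulated exocytosis, had -0.11, -0.17 and 0.12, and the other Rab3c probe gave 0.49.

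Of the other Rabs, Rab40c, a Rab with a ubiquitin-ligase adaptor domain, gave 2.26 and 2.29 in siControl and 2.58 and 2.49 in siTIMP1 (0.26, limma adjusted p = 0.188). Rab23, a brake on Hedgehog signalling, had 0.21 with overlapping groups and -0.12 on its other probe, and Rab28 had 0.07. Rab44, a large Rab known from blood cells, was well above background on both siControl arrays and on neither siTIMP1 array, so that its level in siTIMP1 is only a bound. Its siControl mean was 2.72-fold above a floor set for siTIMP1, with measured means of -2.70 and -4.33. No test is given, since the gene entered the fit through its siControl arrays alone. The array values were -3.22 and -2.18 in siControl and -4.94 and -3.71 in siTIMP1. The nearest arrays of the groups thus lay closer than the means, and the 2.72-fold takes no account of that spread. That floor was the mean over the siTIMP1 arrays of whichever was higher, the level of this probe or the lowest level of any probe well above background. Of the antisense transcripts, Rab10os had 0.37 (adjusted p = 0.194) and Rab26os had 0.05. The arrays name a separate probe for each antisense transcript, and Rab10 itself had 0.06.

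Probes of the same gene gave a measure of how far a fold change depends on the probe. Of the 47 members with more than 1 tested probe, 32 had every probe of the same sign. For the 43 members with more than 1 probe well above background on all arrays, the probes of a gene differed by a median of 0.16 in log2 fold change, and 14 had probes of both signs. Besides those whose probes are given with both signs above, Rab12, Rab14, Rab4a, Rab26os and Arl16 were of that kind. The widest gap was 0.84, in Rab26os, followed by 0.69 in Arl14ep, 0.66 in Rab8b, 0.66 in Rab3c and 0.55 in Arl5b. These gaps are wider than the fold changes of most members. Arl5a and Arl6ip5 have no second probe to compare.

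**Figure D4:**
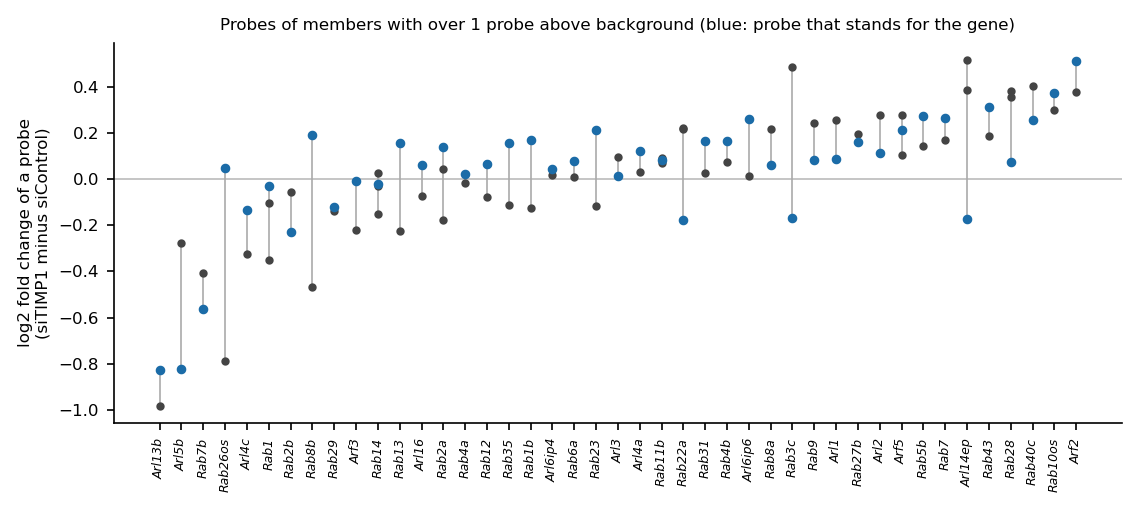
Log2 fold change (siTIMP1 minus siControl, vertical axis) of each probe of the 43 members with more than 1 probe well above background on all arrays, ordered by their mean, with the probe that stands for the gene in blue and the others in grey. Arl13b has both probes below -0.8, Arf2 has both above 0.3, and in Rab26os the probes are 0.84 apart.

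Regulators and effectors of these GTPases, a list of 198 gene symbols, were compared in the same fit. Of the 174 tested, none was called in either direction. At an unadjusted limma p under 0.05, 30 had higher values (17.2%, against 11.9% of all tested genes) and 10 had lower values (5.75%, against 7.99%). Dennd5b, among the 10, was well above background on 2 arrays only, so it entered the fit through 1 group. Its means were -3.45 in siControl and -5.10 in siTIMP1. Some regulators and effectors passed the threshold when a siControl array was left out. The share of all tested genes that did so in those fits was not determined. The counts listed with the other processing choices at the end therefore describe this list only. The median log2 fold change was 0.07, and the median of each list lay between -0.01, for Arf exchange factors, and 0.15, for the prenylation factors and lipid-binding chaperones. The genes of smallest adjusted p, picked by that value, were Agap1, an Arf GTPase-activating protein, and Unc119b, a chaperone of lipid-modified cargo that Arl3 releases. Agap1 gave 2.41 and 2.14 in siControl and 1.27 and 1.45 in siTIMP1 (-0.91, SE 0.125, limma adjusted p = 0.0652). Unc119b gave 2.99 and 2.95 against 3.54 and 3.43 (0.51, SE 0.071, limma adjusted p = 0.0653). In neither gene did the groups overlap, and neither passed the threshold.

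The tested member probes had a median GC content of 41.7%, beside 43.3% for all tested probes, and 17 of the 179 member probes span an exon junction. Apart from the small differences in the middle of the list, the order at the lower end was Arl5a, Arl6ip5, Arl13b, Arl5b and Rab7b, leaving out Rab44, which has only a bound. The SEs of Arl13b and Arl5b, 0.144 and 0.102, are far wider than the distance between them, so their order is not resolved. At the upper end Arf2, Arl2bp, Rab10os and Rab30 followed each other within their SEs.

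**Figure D5:**
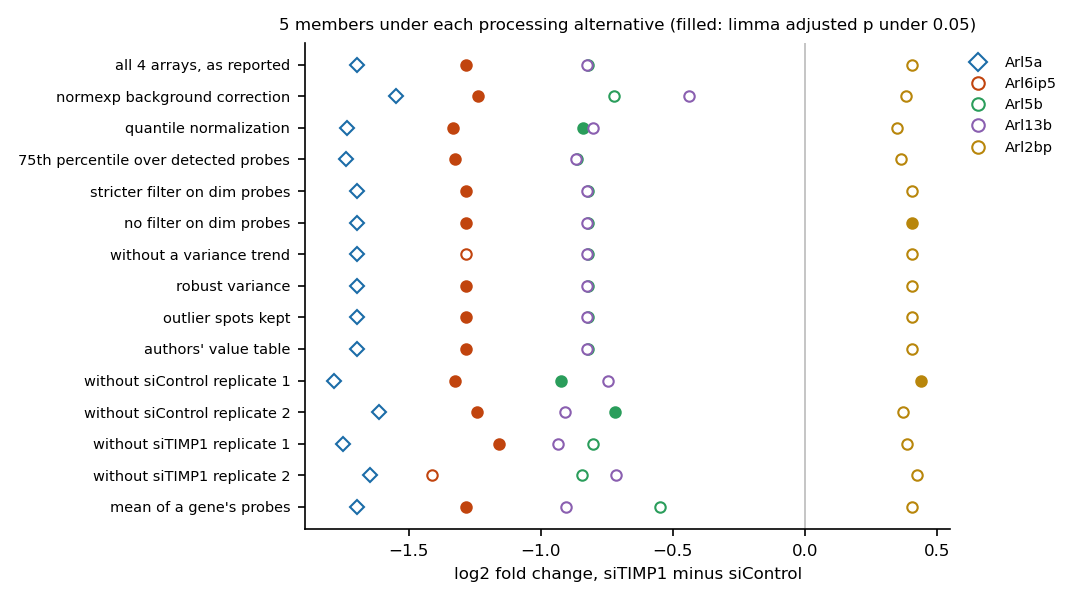
Log2 fold change (siTIMP1 minus siControl, horizontal axis) of 5 members with all 4 arrays as reported and under 14 alternatives, filled where the limma adjusted p is under 0.05 (never filled for Arl5a, which has no test here). Arl6ip5 is filled under 12 of the 14 alternatives, Arl5b under 6, Arl2bp under 2 and Arl13b under none, and each gene keeps its sign throughout.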

How the data were processed

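The deposited scanner files of the 1-colour Agilent arrays hold spot intensity values. The submitters' processing notes name Agilent Feature Extraction 11.5.1.1. The log2 values of the authors' table followed the log2 processed intensity of the same array at a Pearson r of 1.000, and were used as an alternative.

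Control and outlier spots were left out, log2 processed signal minus each array's 75th percentile was taken, and spots of a probe were averaged. All 4 arrays entered 1 fit of siTIMP1 against siControl in limma 3.58.1 (R 4.3.3) with lmFit and eBayes under a mean-variance trend. P-values were Benjamini-Hochberg adjusted over 26014 tested probes, at a threshold of 0.05. Each gene was represented by the tested probe whose mean over the 4 arrays was highest. Of the 179 member probes, 140 had a RefSeq symbol, and 2 symbols differed from the name in the files.

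The members and lists were chosen with earlier results of these data known. Named were Arl5a and its relatives, called members, per role list up to 6 members of smallest p and the one of highest signal, and members with a bound. Others named were picked after their values were seen. On simulated arrays (26014 probes, 200 changed) the fit recovered 20% of 1.5-fold, 52% of 2-fold, 84% of 4-fold and 92% of 8-fold changes, with 21 false calls among 145. Alternatives were normexp background correction (offset 50), other scaling, filters, variance models, thresholds and probe summaries, outlier spots kept, the authors' log2 table, and each array left out. Probe coordinates are of mm9 per the file headers.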

Additional observations from a re-analysis of the deposited data

How the results depend on the processing

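Apart from Arl5a, 1 member was called lower and 0 higher. The lower count became 2 with robust variance, quantile normalization, no filter on dim probes or scaling to the 75th percentile of detected probes, each time with Arl5b added, and 0 without a variance trend. At an adjusted p under 0.1 it was 3, and the higher count 1. The higher count was also 1 with no filter. Which members were called also changed when 1 array was left out. The share of all tested genes called was not determined for any of these alternatives, so the counts describe the members only. Among the 174 regulators and effectors, 0 calls became 2 with no filter, 1 with robust variance, 2 at an adjusted p under 0.1, and 0 to 9 when 1 array was left out. For the regulators and effectors too, the share of all tested genes called in the same fits was not determined. Their counts therefore describe that list only and do not show whether it differs from other genes. For these changes in the counts the cause was not tested. Over 1055 values of 66 named members, none reversed a called direction. Only 1 member besides Arl5a was called with the settings reported, so few of these values could show such a reversal. Of the values called in neither fit, 38 turned sign. Where 1 array of a group remained, limma took its spread to be that of the other group. A slide block could not be fitted with 1 slide. No paired analysis was possible because replicates were numbered in accession order and the labels name nothing that links them across groups. With 2 arrays a group, changes of 2-fold and under were often missed on simulated arrays (52% of 2-fold changes recovered). Some 4-fold changes were missed too (84% recovered).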
